A study of Bos taurus with 2 samples.

Results

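The proteasome is the large protease of the cytoplasm and nucleus that degrades ubiquitin-tagged proteins. Its 20S core is a stack of rings of alpha and beta subunits, with the protease sites on beta subunits inside, and the 19S cap recognizes and unfolds the tagged substrate with a ring of ATPases. In cells that respond to interferon, the inducible subunits PSMB8, PSMB9 and PSMB10 can replace the constitutive protease subunits, and the activator made of PSME1 and PSME2 can take the place of the cap. Developing sperm cells discard most of their histones and cytoplasm, and the germ cells of the testis are known to carry their own core subunit, PSMA8, and the activator PSME4, which binds acetylated histones.

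Proteasome genes were taken as all non-control probes of the array whose gene name began with PSMA, PSMB, PSMC, PSMD, PSME, PSMF or PSMG. This gave 48 genes of 32429, with 103 probes of 51282 and 112 spots of 61657. Among them 47 code for core or cap subunits, activators, an inhibitor or assembly chaperones. The remaining one, PSMC3IP, has the prefix but is a factor of meiotic recombination and no proteasome subunit.

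The crossbred group consisted of Holstein Friesian crosses and the Zebu group of Tharparkar bulls, with no treatment named for either. Each group was 3 bulls aged 24 months from 1 farm, of which each lost 1 testis by castration. RNA of the 3 bulls was pooled, labelled with Cy3 and hybridized to 1 array, so that each group was a single measurement. The comparison asked how the testicular transcripts of crossbred bulls differed from those of Zebu bulls.

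Levels are given as normalized log2 signal, the log2 of the processed signal minus the 75th percentile of the array, and every difference is crossbred minus Zebu. A gene was read from the probe of its name with the highest mean signal. With 1 array per group the differences have no replicate check and no test, so that no p-value can be given. Spots of the same probe gave the only repeats. Their difference had an SD of 0.33 over 5960 probes and 0.12 over the 7 proteasome probes with several spots. This SD covers spotting and scanning but neither labelling, pooling nor animals. Where a difference is set against the SD between spots, the larger value of 0.33 is meant.

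Both arrays lay on the same slide, where 72.0% (crossbred) and 74.3% (Zebu) of the non-control spots were well above background and none was saturated. All 10 spermatid markers (PRM1, TNP1 and others) and all 6 Leydig cell markers were measured well above background in both groups, as the label of testis implies. On the crossbred array a dark patch in rows 54 to 99 of columns 35 to 46 and a bright patch further down in columns 50 to 56 stood apart from their surroundings. They held 544 and 105 non-control spots, and no spot of a proteasome gene lay in either. The nearest was the second spot of a PSMA7 probe, 1 column from the dark patch, with a difference of -0.31 against -0.34 at its other spot. A spot of PSME4 lay 2 columns from the dark patch on its other side, and it is described with that gene.

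**Figure D1:**
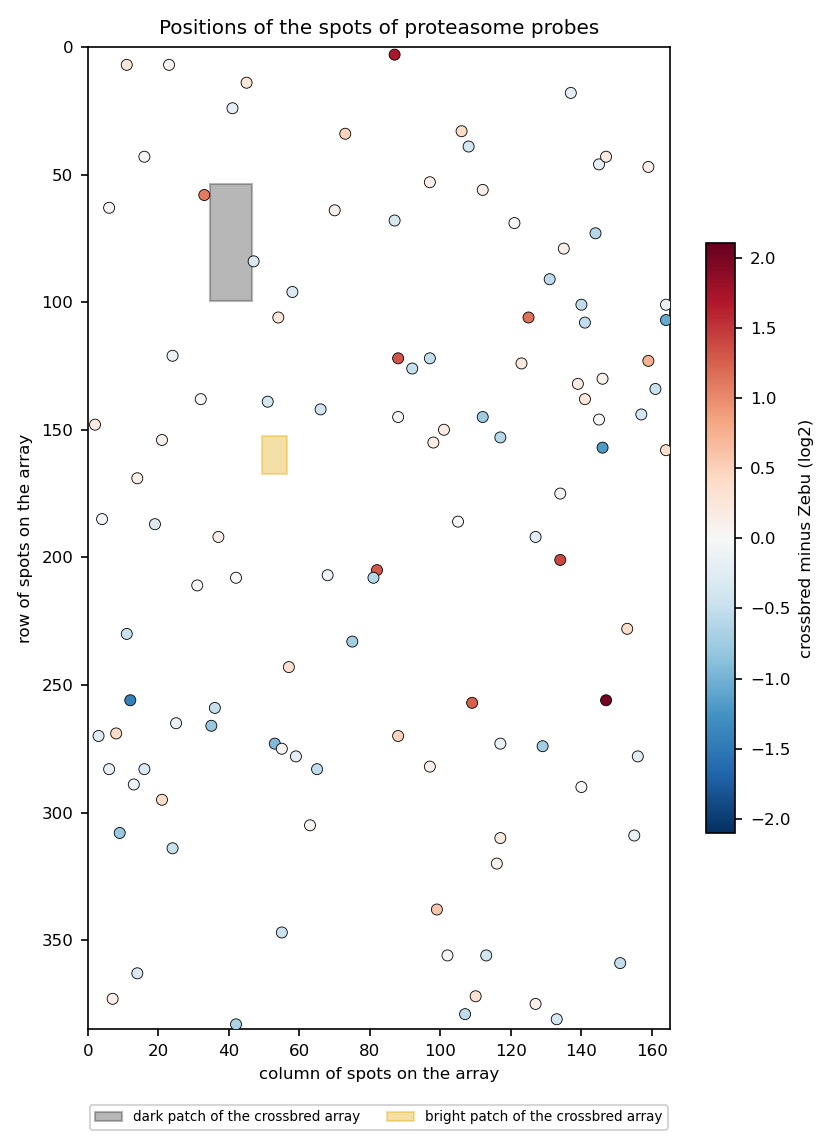
Row and column of each of the 112 spots of proteasome probes on the array, coloured by the crossbred minus Zebu difference (log2), with the dark and the bright patch of the crossbred array as shaded rectangles. No spot lies inside either rectangle, and the spots nearest to the dark one belong to PSMA7 and PSME4.

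All 48 genes were measured well above background in both groups, and most of them differed little. The median difference was -0.05, the same as the median of -0.05 over all 24758 detected genes. Of the 48 genes, 23 were above 0 and 25 below it. A difference under 0.5 in size was found for 35 genes, or 72.9%, against 51.5% of all detected genes. Among genes above the 75th percentile on both arrays the share was 33 of 43 proteasome genes, or 76.7%, against 58.6%. At a log2 difference of 1.5, PSMB11 and PSME3 were higher in crossbred testis, 2 of 48 genes or 4.17%, against 7.25% of all detected genes, and no proteasome gene was lower, against 2.98%. At a difference of 1, PSMA6 and PSMF1 joined them, which made 4 genes or 8.33% against 12.9% of all, and PSMD10 was the only one lower, 2.08% against 8.92%. At a linear fold of 1.5 the same 4 genes were higher, against 21.5% of all, and PSMA4, PSMD5 and PSMD10 were lower, 6.25% against 22.3%. In whole tissue, a lower number of cells of one type and less RNA per cell cannot be told apart.

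**Figure D2:**
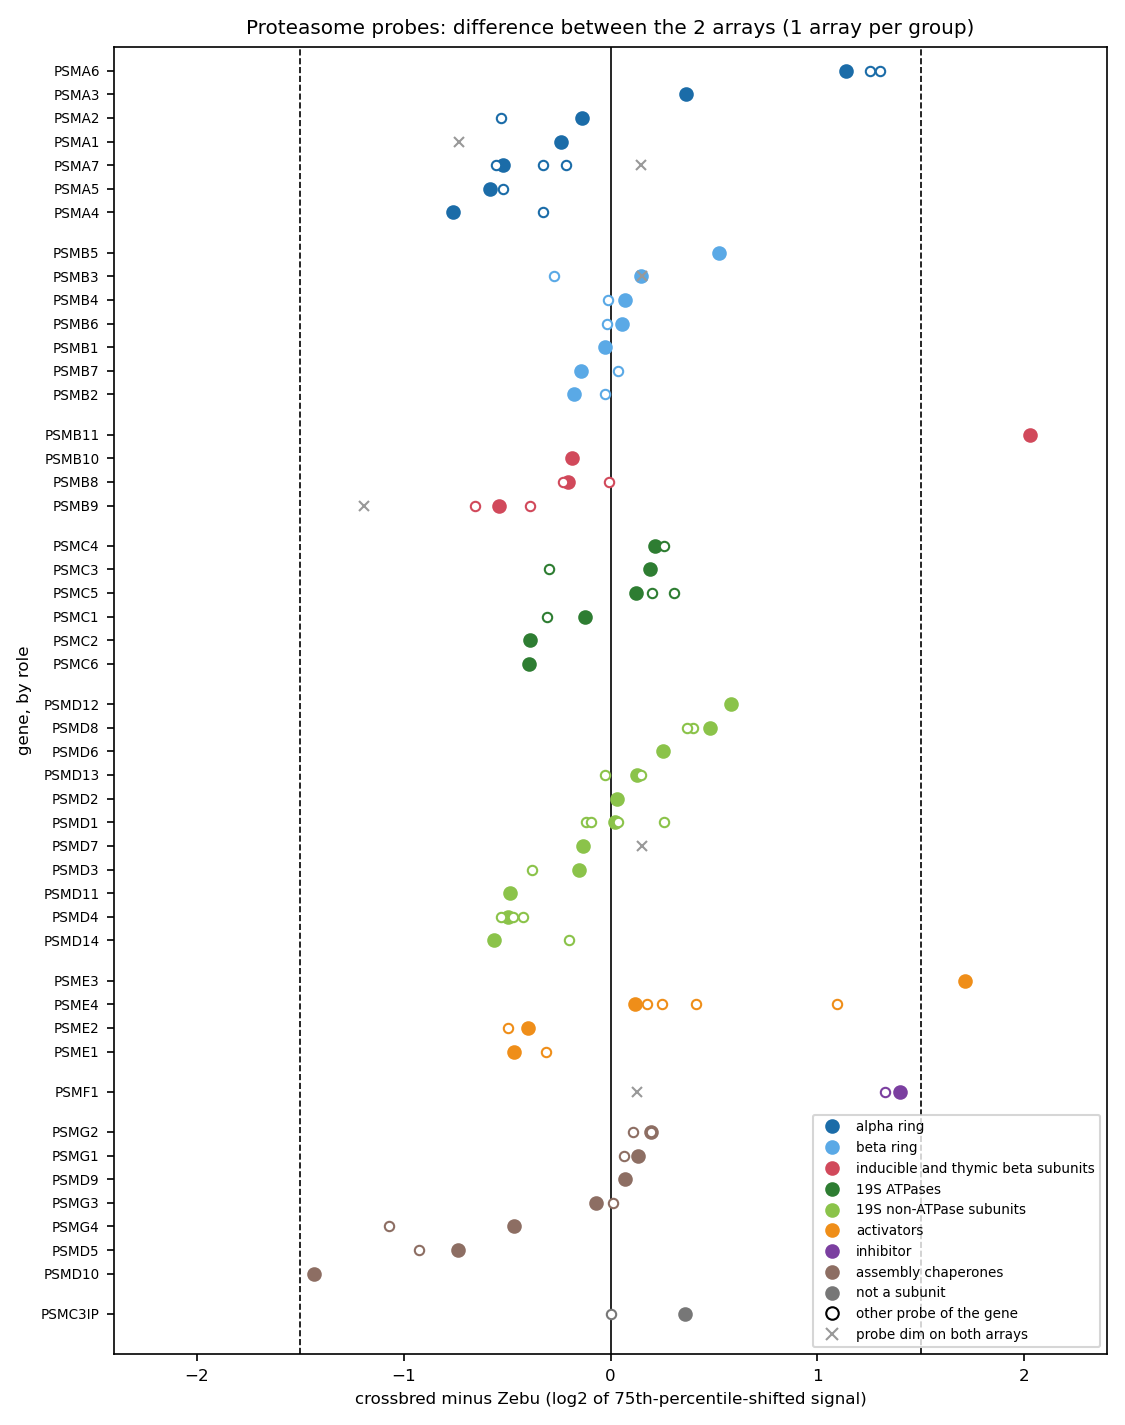
Crossbred minus Zebu difference (log2, x axis) of the 103 probes by gene (y axis), grouped by role. Filled points are the probe from which a gene was read, open points its other probes, crosses the 6 probes dim on both arrays, and dashed lines a difference of 1.5 in size. PSMB11 and PSME3 lie beyond the line on the right, PSMF1 and PSMA6 lie near it with all probes above background together, and PSMD10 lies farthest to the left.

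In the 32 genes with several probes above background, the SD between probes of a gene was 0.19, against 0.51 over 8185 genes of the whole array and 0.34 over the 2155 of them above the 75th percentile. Probes of the same gene mostly had the same direction, all higher in 9 genes and all lower in 15, and they had both signs in 8. No gene had probes more than 1.5 apart, and PSME4 and PSMG4 had probes more than 0.5 apart. The remaining 16 genes rested on 1 probe each, PSMB11, PSMD10, PSMD12 and PSME3 among them. Probes of a gene were not always separate measurements, since in 7 genes (PSMA5, PSMA7, PSMB9, PSMC4, PSMD4, PSMD8 and PSMG2) a pair of probes shared at least 33 bases of sequence. The PSMC4 pair was identical over its 60 bases, and its probes differed by 0.21 and 0.26.

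The alpha ring forms the gate of the core. Of its 7 genes 5 were lower and 2 higher, with a median of -0.24. PSMA6 stood apart from the others. Its level was 6.33 in crossbred and 5.19 in Zebu testis, a difference of 1.14, or 2.20-fold. A second probe gave 6.17 and 4.86, a difference of 1.30, and the last gave 4.16 and 2.90, a difference of 1.25. The last probe lay 5618 bases before the first on the genome, so that the higher level was read at separate places of the transcript. Its sequence is shown because it carries that separate reading, at chr21:46367642-46367701 on the plus strand of HGSC Btau_3.1, the build of the array annotation.
PSMA6 probe: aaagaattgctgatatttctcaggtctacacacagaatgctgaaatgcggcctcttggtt

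No other alpha subunit came near this size. PSMA3 differed by 0.37. PSMA4 was at the other end of the ring, with 2.31 in crossbred and 3.07 in Zebu testis, which differ by -0.76, and its other probe gave -0.33. The spots around these probes had median differences of -0.67 and -0.45, so that PSMA4 differed little from its surroundings on the array, and the part of position was not tested. PSMA5 had 3.08 in crossbred and 3.66 in Zebu testis, a difference of -0.58, with -0.52 at an overlapping probe. PSMA7 differed by -0.52, and its 4 probes above background ran from -0.55 to -0.22. PSMA1 and PSMA2 differed by -0.24 and -0.14, within the SD between spots, but the other probe of PSMA2 gave -0.53.

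PSMA8, the alpha subunit of meiotic and later germ cells, had no probe under its own name. One probe of the array described as PSMA8 is listed by an accession whose identical partner is PSMA8 in the RefSeq gene table of ARS-UCD2.0. This probe had a level of 0.95 in crossbred and 0.53 in Zebu testis, which differ by 0.41, and its spots gave 0.40 and 0.42. The spots lay close to each other, and the difference was slightly above the SD between spots over the array. The array annotation gave the probe no position, and its sequence is shown because it identifies the transcript measured.
PSMA8 probe: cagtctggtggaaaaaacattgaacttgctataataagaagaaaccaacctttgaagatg

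The constitutive beta subunits hold the protease sites of the core, which are those of PSMB5, PSMB6 and PSMB7. Their ring was the part of the core that differed least, with a median of 0.05 over 7 genes and 6 of them under 0.5 in size. PSMB5, the chymotrypsin-like subunit, was the exception. Its level was 4.34 in crossbred and 3.82 in Zebu testis, a difference of 0.52, with spots at 0.46 and 0.58. The surroundings of these spots had median differences of -0.03 and 0.37. PSMB1, PSMB2, PSMB3, PSMB4, PSMB6 and PSMB7 lay between -0.18 and 0.15.

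PSMB11 is the beta subunit known from the cortex of the thymus, where it takes the place of PSMB5. It had the largest difference of all 48 genes. Its level was -0.25 in crossbred and -2.28 in Zebu testis, a difference of 2.03, or 4.08-fold, and the processed signal was 987 and 253. The gene had a single probe with a single spot, at chr10:22106157-22106216 on the minus strand, and the median difference of the spots around it was -0.00. The probe lay 10873 bases from that of PSMB5, which differed by 0.52.

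The 3 inducible subunits did not share this direction. PSMB8 had 1.16 in crossbred and 1.36 in Zebu testis, which differ by -0.20, and its 3 probes gave -0.20, -0.23 and -0.01. The spots around them had median differences of -0.28, -0.32 and -0.06, so that PSMB8 differed little from its surroundings on the array. PSMB9 had 3.59 and 4.13, a difference of -0.54, and its 3 probes above background ran from -0.66 to -0.39, while another was dim on both arrays. The spots around the 3 PSMB9 probes above background had median differences of 0.08 to 0.44. PSMB10 had -1.65 and -1.46 on a single probe, a difference of -0.18. PSMB8 and PSMB10 thus differed by less than the SD between spots of 0.33, but by more than the 0.12 of the proteasome probes. PSMB9 differed by more than both.

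A probe of each of these subunits is shown to identify the inducible transcripts measured. For PSMB8 and PSMB9 it is not the brightest probe, from which the gene was read, and for PSMB10 it is the only one. That of PSMB8 spans 298 bases of the genome for its 60 bases (chr23:7379932-7380229, minus strand), as a probe across a splice junction would, and gave -0.23. That of PSMB9 (chr23:7398455-7398514, plus strand) does not overlap the other PSMB9 probes and gave -0.39. That of PSMB10 (chr18:34441558-34441728, minus strand) likewise spans 171 bases.
PSMB8 probe: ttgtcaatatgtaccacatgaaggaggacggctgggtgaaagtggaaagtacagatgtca
PSMB9 probe: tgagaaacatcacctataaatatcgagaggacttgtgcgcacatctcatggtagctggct
PSMB10 probe: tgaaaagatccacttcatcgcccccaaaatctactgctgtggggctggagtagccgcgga

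PSME1 and PSME2, the interferon-inducible activator, moved the same way as PSMB9. PSME1 had 2.78 in crossbred and 3.25 in Zebu testis, which differ by -0.47, with -0.31 at its other probe. PSME2 had 2.50 and 2.90, a difference of -0.40, and -0.49 at its other probe. The spots around the PSME1 probes had median differences of -0.27 and -0.28, and those around the PSME2 probes 0.20 and -0.09. The part of position was not tested. A further probe described as PSME1 and listed outside the gene name gave -0.12, with spots at -0.43 and 0.18. All probes above background under the names of the 5 inducible genes were lower in crossbred testis, by 0.01 to 0.66, and this further probe had no common direction over its spots. Constitutive subunits reached similar values, with PSMA5 at -0.58, PSMD14 at -0.56, PSMA7 at -0.52 and PSMD4 at -0.50. The spots around these probes had median differences of -0.33 for PSMA5, -0.48 and -0.13 for PSMD14, 0.09 for PSMA7 and 0.10 for PSMD4. Of all 48 proteasome genes, 23 were above 0 and 25 below it. Of 12 genes of interferon response and antigen presentation, 11 were detected, 3 above 0 and 8 below it, with a median of -0.22, and IFIT1 was dim on both arrays. Their summed processed signal was 66044 in crossbred and 80928 in Zebu testis, of which B2M alone gave 53195 and 65164. Summed signals, here and below, were not normalized between arrays. MX1 was the one past the threshold, at -2.03. Of 9 leukocyte markers 2 were above 0 and 6 below it, with a summed signal of 26191 and 18640, in which AIF1 differed by 1.95, CD3E by -0.93, and CD163 was dim on the crossbred array. The part of these cells and of interferon signalling in the difference was not tested.

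PSME3 forms the nuclear activator that opens the core without ubiquitin or ATP. Its level was 2.98 in crossbred and 1.26 in Zebu testis, a difference of 1.71, or 3.28-fold. The gene name covered 1 probe with 1 spot, far from both patches, and the spots around it had a median difference of 0.13. A second probe of the array was listed by an accession whose identical partner is PSME3 in the RefSeq gene table. It had 3.08 and 1.33, a difference of 1.75, with spots at 1.65 and 1.84, so that 3 spots of 2 probes lay between 1.65 and 1.84.

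The array also held probes for a PSME3-like copy, LOC520216, which differed less, by 0.60 on a probe at chr3:8396943-8397002 (minus strand) and by 0.33 on another. The PSME3 probe, at chr19:44223511-44223570 (plus strand), could be aligned with the first of these over 48 bases, of which 36 were identical and 12 were not. The sequences are shown because RNA of similar copies can bind to the same probe, and the capitals mark the 12 bases at which these 2 probes differ.
PSME3 probe: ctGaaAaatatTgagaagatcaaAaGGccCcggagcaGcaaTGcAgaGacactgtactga
PSME3-like probe: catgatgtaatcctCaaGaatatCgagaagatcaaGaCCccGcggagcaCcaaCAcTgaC
Second PSME3 probe: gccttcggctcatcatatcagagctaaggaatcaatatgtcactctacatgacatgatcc

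PSME4, also called PA200, is the activator known from the replacement of histones in spermatids. Its level was 2.79 in crossbred and 2.68 in Zebu testis, a difference of 0.12, within the SD between spots. Another 3 probes gave 0.18, 0.25 and 0.41. The remaining one gave 1.1, with levels of -2.55 and -3.65, and this was the spot 2 columns from the dark patch, where the surrounding spots had a median difference of 0.30. A further probe that the array describes as PSME4 under an accession differed by 0.09. All probes of PSME4 were thus higher in crossbred testis, mostly by less than the SD between spots.

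PSMF1, also called PI31, binds the core and inhibits it in the test tube. It had 4.60 in crossbred and 3.20 in Zebu testis, a difference of 1.40, or 2.63-fold, which was just under the threshold. Its second probe, 28624 bases away on the genome, had 0.70 and -0.62, a difference of 1.33, and another was dim on both arrays. A probe described as the PI31 subunit and listed outside the gene name gave 1.70. The readings above background therefore lay between 1.33 and 1.70. The second probe is shown because of its distance from the first, at chr13:60841826-60841885 on the minus strand.
PSMF1 probe: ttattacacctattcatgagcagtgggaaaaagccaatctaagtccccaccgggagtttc

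**Figure D3:**
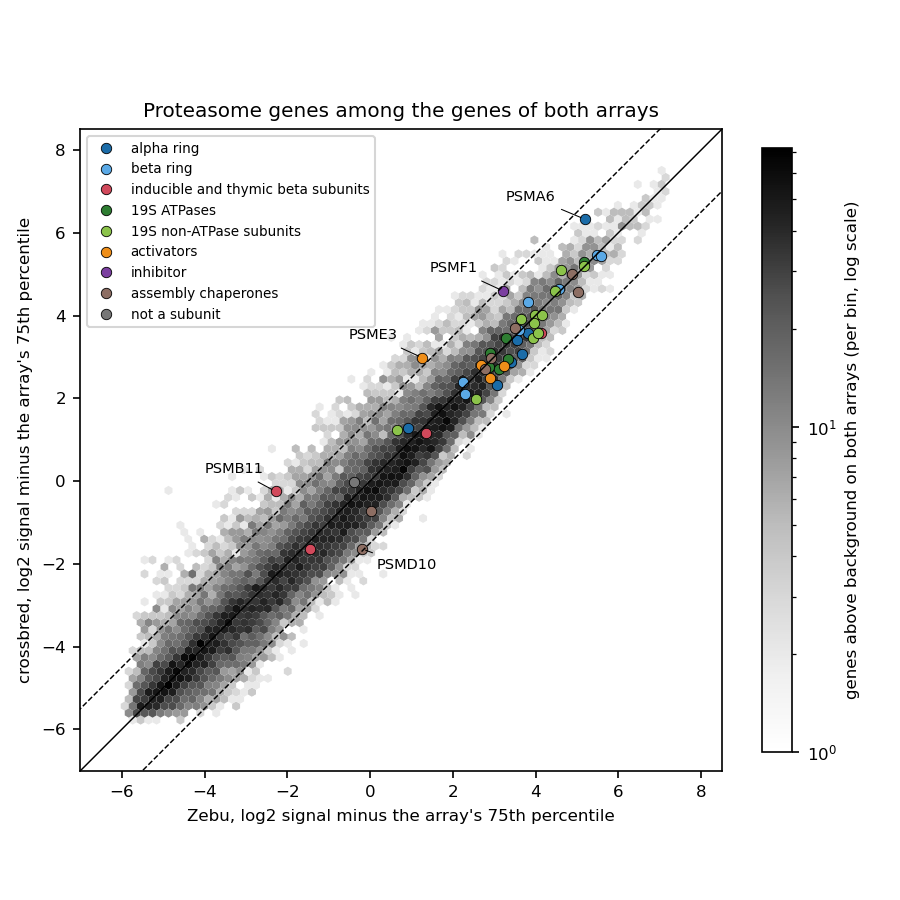
Normalized log2 signal in crossbred (y axis) against Zebu testis (x axis), in which grey hexagons count genes measured above background in both groups and coloured points are the 48 proteasome genes by role. The solid line marks equal levels and the dashed lines a difference of 1.5. Most points follow the solid line, PSMB11 and PSME3 lie above the upper dashed line, PSMF1 and PSMA6 lie just below it, and PSMD10 lies next to the lower one.

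The 6 ATPases of the 19S cap, which unfold the substrate, differed by 0.21 or less upward and 0.40 or less downward, with a median of -0.00. PSMC3, PSMC4 and PSMC5 were above 0 and PSMC1, PSMC2 and PSMC6 below it. PSMC2 and PSMC6 differed by -0.39 and -0.40, each on 1 probe. PSMC3 had probes at 0.19 and -0.30, and a further probe described as PSMC3 gave -0.12, so that it had no common direction.

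The 11 remaining subunits of the cap found by the name prefixes include the ubiquitin receptor PSMD4 and the deubiquitinase PSMD14. Their median was 0.02, with 6 genes above 0 and 5 below it. PSMD12 was highest among them, with 1.23 in crossbred and 0.65 in Zebu testis, a difference of 0.58, with spots at 0.42 and 0.74. The surroundings of these 2 spots had median differences of 0.16 and 0.38, and the part of position was not tested. PSMD8 followed with 0.48, and its 3 probes gave 0.37 to 0.48, but a further probe that the array describes as like PSMD8, listed by accession, gave 0.05 with spots at -0.02 and 0.12. At the other end, PSMD14 had 1.99 in crossbred and 2.55 in Zebu testis, a difference of -0.56, with -0.61 and -0.52 at its spots and -0.20 at its other probe. PSMD4 was lower on all 4 of its probes, which lay between -0.53 and -0.42, and PSMD11 gave -0.49 on 1 probe. PSMD1, PSMD2, PSMD3, PSMD6, PSMD7 and PSMD13 lay between -0.15 and 0.25.

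The 31 constitutive subunits of core and cap found by the name prefixes were taken as 1 set. Their median was -0.03, with 15 above 0 and 16 below it. The extremes were PSMA4 at -0.76 and PSMA6 at 1.14, and none passed the threshold. Among these 31, PSMA6 was thus the only one with a difference beyond 1 in size. Its partners in the same ring lay between -0.76 and 0.37. ADRM1, a ubiquitin receptor of the cap whose name lacks the prefixes, was outside this set and differed by 1.01.

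Assembly chaperones bring the rings and the base of the cap together and are not part of the finished complex. Their 7 genes had a median of -0.07, but the 3 largest differences among them were downward. PSMD10, or gankyrin, had -1.64 in crossbred and -0.20 in Zebu testis, a difference of -1.43, or 2.70-fold lower in crossbred testis, on a single spot at chrX:34454144-34454203 (minus strand). Detected genes with a probe on chromosome X had a median of -0.42 over 493 genes, and the part of the chromosome in this difference was not tested.

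PSMD5 had -0.71 and 0.02, a difference of -0.74, with 4 spots from -0.82 to -0.61 and another probe at -0.92. PSMG4 had 4.57 and 5.04, a difference of -0.47, and its other probe gave -1.07, so that the size was not settled while both were lower. PSMG1, PSMG2, PSMG3 and PSMD9 lay between -0.07 and 0.19. PSMC3IP, which has no part in the proteasome, differed by 0.36, and its other probe gave 0.00.

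The genes that act on or with the proteasome were taken from a list of 31 names of ubiquitin genes, shuttle factors, deubiquitinases and regulators, of which 27 were on the array. All 27 were above background in both groups, 17 above 0 and 10 below it, with a median of 0.13, and none of the 27 passed the threshold. The 4 names without a probe were SEM1, a newer name of SHFM1, and ECM29, KIAA0368 and ECPAS, which are names of a single gene. This gene, a proteasome-associated scaffold, had a probe described as ECM29 under another identifier, with levels of -2.0 in crossbred and -0.45 in Zebu testis. The difference of -1.54 on its single spot was past the threshold. ADRM1, the ubiquitin receptor that binds the cap beside PSMD4, had the largest difference upward, with 6.06 in crossbred and 5.05 in Zebu testis, which differ by 1.01, and a range of 0.82 to 1.36 over 4 probes. NGLY1, an enzyme that removes glycans and activates the factor NFE2L1, had 2.27 and 1.40, a difference of 0.86 and a range of 0.86 to 1.17 over 3 probes.

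The largest differences downward among the 27 were those of ZFAND5, a protein that binds the proteasome, and NFE2L2, a transcription factor of the oxidative stress response. ZFAND5 had 2.12 in crossbred and 2.99 in Zebu testis, which differ by -0.86, and its 3 probes ran from -0.93 to -0.75. NFE2L2 differed by -0.71. NFE2L1, the factor that raises proteasome genes when the proteasome is inhibited, differed by -0.53, with 5 probes from -0.70 to -0.44. POMP, the chaperone on which the core matures, had 5.43 and 5.10, a difference of 0.33, about as large as the SD between spots.

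Markers of germ, Sertoli and Leydig cells had larger median differences than the proteasome genes. All 10 spermatid markers were higher in crossbred testis, with a median of 1.67 and a summed signal of 680307 against 362266. The 5 spermatocyte markers on the array of 8 were above 0, with a median of 0.41 and sums of 15329 and 12931. In contrast, the 6 Sertoli cell markers on the array of 7 and the 6 Leydig cell markers were all below 0, with medians of -0.83 and -0.79 and sums of 179998 against 295899 and of 103224 against 163386. Single bright genes weighed most in these sums, CLU with 116048 and 169562 and INSL3 with 89712 and 127390. PSMB11, PSME3, PSMF1 and PSMA6 had the sign of the spermatid markers, and PSMD10 that of the Sertoli and Leydig cell markers. Any gene above or below 0 has the sign of one or the other, so that this match does not tie these genes to a cell type. The part of cell composition in these differences was not tested.

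**Figure D4:**
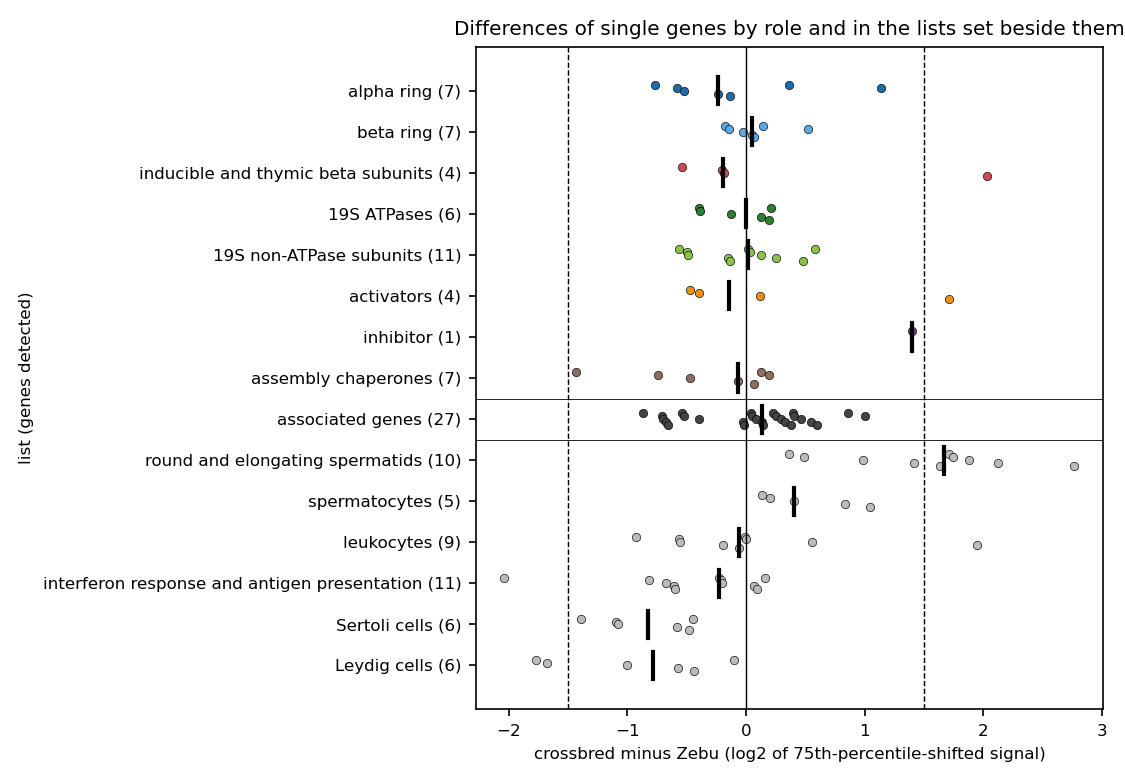
Crossbred minus Zebu difference (log2, x axis) of single genes by list (y axis, with the number of genes detected). Each point is a gene, thick vertical bars are list medians, and dashed lines mark a difference of 1.5 in size; CD163, dim on the crossbred array, is drawn at 0. The medians of core, cap and chaperone genes lie between -0.24 and 0.05, while that of the spermatid markers lies at 1.67 and those of Sertoli and Leydig cell markers at -0.83 and -0.79.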

How the data were processed

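The authors pooled the RNA of 3 bulls per group (24 months of age) and scanned 1 Cy3 array per group with Agilent Feature Extraction 11.5.1.1. They deposited for each spot the processed signal, an intensity that was background-subtracted and detrended within its array but not normalized between arrays, besides the mean and local background intensity. The authors also deposited log2 values, the log2 of the processed signal minus the 75th percentile of the array.

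Here control spots and 13 outlier spots were left out, the log2 signals of a probe's spots were averaged, and the 75th percentile over non-control probes (a signal of 1176 in crossbred and 1233 in Zebu testis) was subtracted. Each gene name was 1 gene, represented by its brightest probe (mean signal of both arrays), and it counted as detected if the scanner software marked that probe well above background in at least 1 group. Calls needed a log2 difference of 1.5 in size (2.83-fold), since the study's threshold of 1.5 was read here on the log2 scale, with the brighter array well above background. Calls used the measured difference (1795 genes higher, 737 lower), while medians used a bound where 1 array was dim, by which 1663 and 518 genes would be called. No proteasome gene was affected. The array annotation placed probes on HGSC Btau_3.1, and 6 of the 103 probes were not placed. Probe sequences were those deposited for the array.

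Values in full were given for PSMA8, the inducible and thymic subunits, the activators, PSMF1, POMP, every gene past the threshold, the 5 largest differences each way, and the 2 largest each way among associated genes. NFE2L1, the probe of ECM29 and the single marker genes were named after their values were seen. Members, lists and tests were chosen with earlier results of these data known. Python 3.11.15, numpy 2.4.6, pandas 2.3.3, matplotlib 3.10.9, R 4.3.3 and limma 3.58.1 were used, and the steps were tested on simulated data. Alternatives covered background correction (normexp with an offset of 50), normalization, filters, probe summary, patches and thresholds. With 1 array per group, the number of arrays limits the precision and no test between groups could be made.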

Additional observations from a re-analysis of the deposited data

How the results depend on the processing

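PSMB11 and PSME3 were the 2 genes called higher, and none was called lower, under the authors' log2 values, quantile normalization, normexp correction, a median shift, a percentile over probes above background in both groups, both filters on dim probes, the mean of all probes and the patches left out. The filters and the patches could hardly change these calls, since all 48 genes were above background on both arrays and none had a spot in a patch. PSMB11 and PSME3 had 1 probe each under their names, so that the mean over probes was the same value. The median shift and the other percentile moved all genes by a common amount. Other thresholds moved the counts, to 4 higher and 1 lower at a log2 difference of 1, and to 4 higher and 3 lower (PSMA4, PSMD5 and PSMD10) at a linear fold of 1.5. PSMF1, the single inhibitor, differed by 0.95 in place of 1.40 in the mean of all probes, which includes the probe dim on both arrays. NFE2L2 differed by -1.12 in that mean, which includes a probe that was not above background on both arrays. Its 3 probes above background ran from -0.92 to -0.71. Of the 198 values of named genes under these settings, 196 stayed within the SD between spots of the value reported, and none changed sign. Many of the 198 came from settings that could move a gene only by a common shift or not at all. The median over the proteasome genes lay between -0.18 under quantile normalization and -0.02 under normexp, with -0.06 and -0.02 for all detected genes. Medians by role that lay near 0 did not keep their sign in every setting. Under quantile normalization that of the beta ring was -0.13 in place of 0.05. That of the cap subunits other than the ATPases was -0.17 in place of 0.02. No paired analysis was possible because each group had 1 array.

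PSMB11 and PSMD10 rest on 1 spot each. The arrays hold 1 pool per breed, so the spread between bulls was not measured. Calls rest on signal over background, and the 6 proteasome probes dim on both arrays gave no usable difference.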
